A study of Mus musculus with 12 samples.

Results

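The 10 genes described here encode the fibrinogen chains and a set of clotting, anticoagulant and fibrinolytic proteins that hepatocytes secrete into plasma. They were taken as a fixed list, Fga, Fgb, Fgg, F2, F5, F9, F11, Plg, Proc and Serpinc1, out of 32285 genes in the count matrices. Their molecule counts were followed in hepatocyte nuclei of the liver, of the freshly isolated cells and of the cultured cells, with endothelial nuclei of the same samples as the background.

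Single-nucleus RNA sequencing was done on 24 samples from 8 wild-type mice, with a Liver (L), a Cell Suspension (CS) and a Primary Hepatocytes (PH) sample from each mouse. The labels give the strain as C57BL6J, whereas the methods of the study describe chow-fed male C57BL/6NTac mice aged 10 to 12 weeks. All animals were perfused with EGTA, and a liver lobe was then taken as the Liver sample before collagenase, so the Liver group is perfused tissue. The Cell Suspension was the collagenase-digested liver collected at the end of isolation, and the Primary Hepatocytes were plated from it on collagen and cultured for 24 hours, first in a plating medium with more serum while they attached and then in medium with 1 µM dexamethasone, 1 nM insulin and 0.5% serum. No group carried a transgene or a deletion. Nuclei of the 24 samples were marked with hashtag antibodies and run as 6 pools of 4 samples, and each mouse had samples in more than 1 pool. Sample type and pool were partly confounded, as pools 1 and 6 held no PH sample and pools 3 and 4 no L sample.

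The deposited annotation holds 53467 nuclei, of which 44788 were hepatocyte nuclei here (15166 of L, 13339 of CS and 16283 of PH) and 5435 were endothelial. The hepatocyte nuclei of a sample gave between 2104087 and 29023569 unique molecular identifiers (UMIs, each counted once per captured RNA molecule), the lowest total being that of CS mouse 7. Endothelial nuclei gave 95289 to 2578536 UMIs per sample, so their values are less precise. The 8 hepatocyte markers summed to 10508 to 15591 CPM (UMIs of a gene per 1000000 UMIs of the sample's nuclei of that type) in L hepatocyte nuclei, 11826 to 16112 CPM in CS and 3009 to 7071 CPM in PH, and all 8 were detected. In endothelial nuclei the same markers summed to 2004 to 4167 CPM in L, 1736 to 5506 CPM in CS and 1448 to 4466 CPM in PH, so RNA of hepatocyte genes was present in nuclei of another type in each group. The 9 endothelial markers summed to 11271 to 14717 CPM in L endothelial nuclei and 31.4 to 50.6 CPM in L hepatocyte nuclei, against 5206 to 8647 CPM and 116 to 171 CPM in PH. Of all nuclear barcodes, 337 occurred in more than 1 pool.

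Fibrinogen is a secreted complex built from Aα, Bβ and γ chains, the products of Fga, Fgb and Fgg, and thrombin cleaves it to the fibrin that forms a clot. Hepatocytes are the main source of fibrinogen, of most clotting factors and of plasminogen, and the fibrinogen genes belong to the acute-phase genes that interleukin-6 and glucocorticoids raise. The same cells make the brakes of the cascade, among them antithrombin and protein C.

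The 3 fibrinogen genes are neighbours on chromosome 3, where they span 42.1 kb (GRCm38, chr3:83007724-83049863). Fgg (chr3:83007724-83015049) and Fga (chr3:83026076-83033627) lie on the plus strand and Fgb (chr3:83040141-83049863) lies on the minus strand. The bases before each gene, from 250 bases before the RefSeq start site up to the annotated start of the gene, are printed below, 5′ to 3′ on the strand of the gene, because these 3 genes were the members that moved in opposite directions in isolation and culture. Capitals mark CTGGGA, the core of the interleukin-6 response element, and GTTAAT, part of the binding site of the hepatocyte factor HNF1, on either strand. The sequences are those of RefSeq on GRCm38.p6. The RefSeq start site is the annotated gene start for Fgb and Fgg but lies 77 bases inside the annotated gene for Fga, so 173 bases are printed for it.
Fga (chr3:83025903-83026075, plus strand): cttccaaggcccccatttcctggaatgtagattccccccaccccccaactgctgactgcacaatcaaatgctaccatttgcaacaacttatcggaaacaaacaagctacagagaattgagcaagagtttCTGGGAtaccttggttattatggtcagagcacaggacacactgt
Fgb (chr3:83049864-83050113, minus strand): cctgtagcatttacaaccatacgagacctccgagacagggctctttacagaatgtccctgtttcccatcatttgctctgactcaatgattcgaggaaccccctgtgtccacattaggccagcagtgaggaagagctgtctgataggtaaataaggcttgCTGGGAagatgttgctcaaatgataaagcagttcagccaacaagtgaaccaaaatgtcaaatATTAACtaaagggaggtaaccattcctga
Fgg (chr3:83007474-83007723, plus strand): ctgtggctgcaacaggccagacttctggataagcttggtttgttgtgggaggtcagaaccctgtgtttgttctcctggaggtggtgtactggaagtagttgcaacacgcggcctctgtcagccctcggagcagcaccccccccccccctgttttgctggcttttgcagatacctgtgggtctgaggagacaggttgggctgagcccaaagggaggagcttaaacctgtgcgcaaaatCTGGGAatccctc
Counted from the RefSeq start sites, CTGGGA began 121 bases before that of Fga, 91 bases before that of Fgb and 13 bases before that of Fgg. GTTAAT began 43 bases before the start of Fga, within the annotated gene and not printed, and 29 bases before that of Fgb. TTGCNNAA, a form of the C/EBP site that is not capitalised, began 135 bases before the start of Fga and 80 bases before that of Fgb. In the window of 250 bases before and 50 bases after the start, CTGGGA was present in 31.8% of 32851 RefSeq promoters, GTTAAT in 7.10% and TTGCNNAA in 10.8%, so CTGGGA alone sets few promoters apart. The 3 motifs did not overlap each other in these promoters. Of the 10 members, 8 had a promoter entry.

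The other members lie on 6 further chromosomes. F2 (chr2:91625320-91636414), F5 (chr1:164151838-164220277), F9 (chrX:59999464-60030759) and F11 (chr8:45241174-45262031) encode clotting factors. Plg (chr17:12378608-12419385) encodes plasminogen, Serpinc1 (chr1:160978585-161005863) antithrombin, and Proc on chromosome 18 protein C. In the 300-base windows, F2 and F9 held CTGGGA, F2 held GTTAAT, F9, F11 and Serpinc1 held TTGCNNAA, and F5 held none of the 3.

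**Figure D1:**
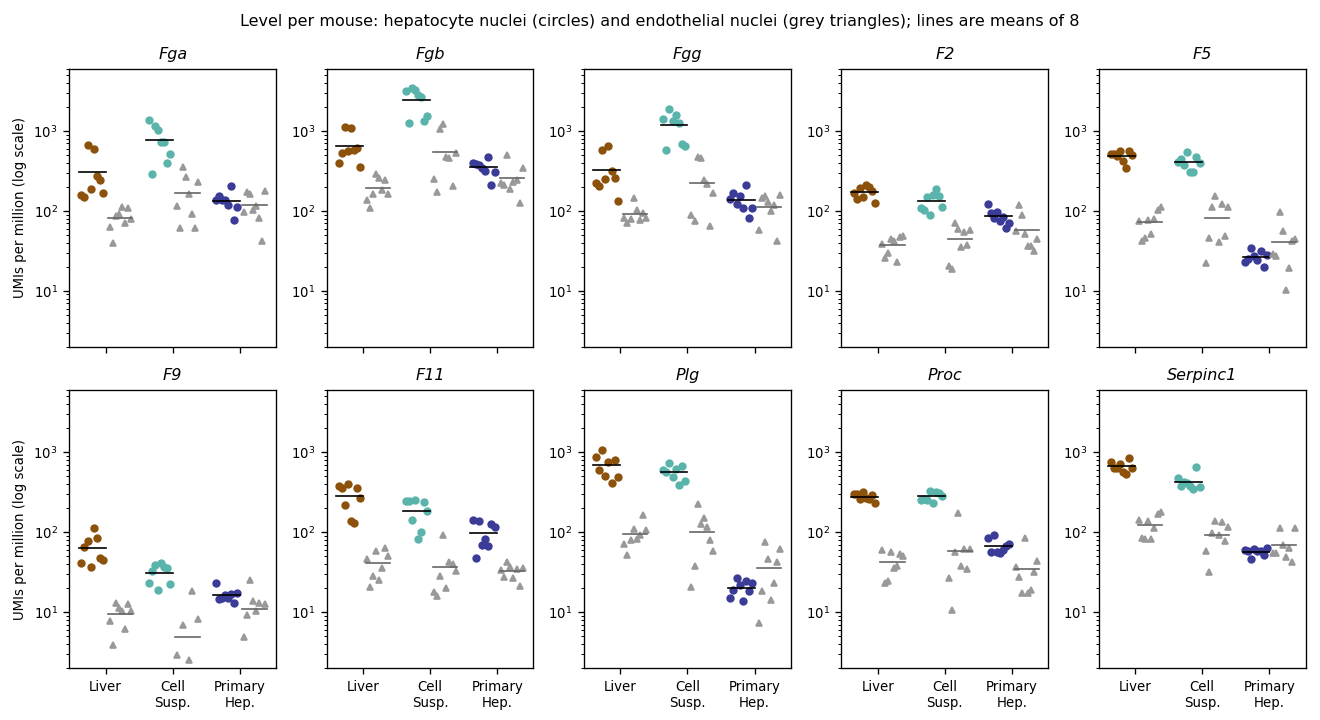
Level of each member in hepatocyte nuclei, in CPM on a log axis, for the 8 L, 8 CS and 8 PH samples, each circle a sample, with endothelial nuclei of the same samples as grey triangles and lines at the means of 8 (some F9 endothelial values lie below the axis). The means of Fga, Fgb and Fgg were highest in CS, and Plg fell from 408 to 1072 CPM in L to 14.0 to 26.8 CPM in PH.

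The fibrinogen genes rose during isolation and were lower after 24 hours in culture than in the liver, whereas the other members were close to or below their liver level after isolation and lower in culture. Levels below are unscaled CPM of hepatocyte nuclei, and log2 differences are from the quasi-likelihood test of edgeR, with p-values adjusted over the 26778 genes tested by the method of Benjamini and Hochberg. The TMM scaling factors of edgeR were 1.24 to 1.57 in PH and 0.74 to 1.00 in L and CS, so the falls in PH are larger on this scale than in CPM.

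Fgb, the gene of the Bβ chain, had 353 CPM at the lowest, 569 at the median and 1129.7 at the highest of 8 L samples. It had 1249, 2727 and 3446 CPM in CS and 209, 361 and 468 CPM in PH. Every CS sample lay above every L sample, and PH overlapped L. Fgb rose by 2.02 ± 0.28 on the log2 scale (SE) in CS over L, which is 4.07-fold (adjusted p = 2.71e-06), and was higher in 8 of 8 mice. In PH it fell by 1.51 ± 0.28 against L (2.84-fold lower, adjusted p = 2.78e-05) and by 3.53 ± 0.30 against CS (11.6-fold lower, adjusted p = 1.96e-11).

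Fgg, which encodes the γ chain, had 134 CPM at the lowest, 252 at the median and 647 at the highest in L. The corresponding values were 582, 1289 and 1881 CPM in CS and 81.2, 131 and 209 CPM in PH. L and CS overlapped because the highest L sample, from mouse 5, exceeded the lowest CS sample, yet within each of 8 mice CS was the higher. Fgg rose by 1.97 ± 0.32 on the log2 scale in CS over L (3.91-fold, adjusted p = 2.30e-05). It fell by 1.88 ± 0.32 in PH against L (adjusted p = 7.34e-06) and by 3.85 ± 0.34 against CS, or 14.4-fold (adjusted p = 5.39e-11).

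Fga, the Aα chain gene, had 148, 218 and 663 CPM at the lowest, median and highest in L. It had 294, 734 and 1364 CPM in CS and 76.7, 136 and 204 CPM in PH. The groups L and CS overlapped and so did L and PH, while CS and PH did not. Fga rose by 1.46 ± 0.35 in CS over L (2.76-fold, 8 of 8 mice, adjusted p = 0.00225) and fell by 1.80 ± 0.35 in PH against L (adjusted p = 6.01e-05), where it was lower in 7 of 8 mice. With library size alone in place of TMM, the falls of Fga, Fgb and Fgg in PH against L were -1.19, -0.91 and -1.26 on the log2 scale, and all 3 calls held. The mean PH level in endothelial nuclei, the background, was 88.6%, 73.6% and 83.3% of that in hepatocyte nuclei for these genes. Hepatocyte nuclei had the higher level in 5, 6 and 6 of 8 PH samples. The folds of these genes in PH may thus also be limited by the background, whose part was not tested.

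The spread of the fibrinogen genes between L samples was widest through mice 3 and 5. Fgb was at 1129.7 and 1101 CPM in these 2 livers and at 353 to 610 CPM in the other 6. Fga was at 663 and 596 CPM there and Fgg at 584 and 647 CPM, against highest values of 275 and 317 CPM in the others. Leaving out either mouse kept each call of the 3 genes in hepatocyte nuclei. In L, the hepatocyte nuclei of mice 3 and 5 were also the deepest. Their medians were 13996 and 13129.5 UMIs, against 4390.5 to 9923 UMIs in the other 6. Their TMM factors, 0.84 and 0.80, were the lowest of L. A link of depth with the fibrinogen levels was not tested.

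The clotting factor genes did not share the rise during isolation. F5, the gene of factor V, the cofactor with which factor Xa activates prothrombin, had 346, 508 and 557 CPM at the lowest, median and highest of the L samples. In PH it had 20.1, 25.9 and 34.0 CPM, far below every L and CS sample. It fell by 4.76 ± 0.17 on the log2 scale in PH against L, or 27.1-fold (adjusted p = 2.66e-20), while in CS, with 303 to 542 CPM, it differed from L by -0.12 ± 0.14 (adjusted p = 0.599).

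F2, the gene of prothrombin, and F11, the gene of factor XI, also fell in culture. F2 had 127, 170 and 209 CPM at the lowest, median and highest in L, 88.2 to 189 CPM in CS and 60.8, 82.9 and 121 CPM in PH. The PH samples all lay below the L samples, with a narrow gap. F2 fell by 1.58 ± 0.16 in PH against L (adjusted p = 1.01e-09). F11 had 131, 312 and 397 CPM in L, 83.2 to 251 CPM in CS and 47.7, 99.3 and 143 CPM in PH, and the groups overlapped. It fell by 2.04 ± 0.27 in PH against L (adjusted p = 1.14e-07), being lower in 8 of 8 mice. Against L, CS differed by -0.24 ± 0.16 for F2 (adjusted p = 0.310) and by -0.44 ± 0.26 for F11 (adjusted p = 0.255). Both had a lower CPM in CS in 8 of 8 mice, and did not pass with the mouse as a block either (-0.25, adjusted p = 0.208, and -0.44, adjusted p = 0.114).

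F9, the X-linked gene of factor IX, passed the test for a lower level after isolation. It had 36.9, 56.6 and 113 CPM at the lowest, median and highest in L and 19.2, 34.3 and 41.1 CPM in CS, with overlap between the groups. In 8 of 8 mice CS was below L, and the log2 difference was -0.93 ± 0.22 (1.91-fold lower, adjusted p = 0.00169). With the mouse as a block it was -0.88 (adjusted p = 0.000264). In PH the range was 12.9 to 23.1 CPM, all below L, and F9 fell by 2.54 ± 0.22 against L (adjusted p = 3.20e-11).

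Plg, whose product plasminogen is the precursor of the clot-dissolving protease plasmin, fell in culture to the background level measured in endothelial nuclei. It had 408, 678 and 1072 CPM at the lowest, median and highest in L, and 393, 586 and 734 CPM in CS. In PH these values were 14.0, 20.4 and 26.8 CPM, without overlap with either group. The fall in PH against L was 5.67 ± 0.24 on the log2 scale, or 50.9-fold (adjusted p = 1.28e-18), and with library size alone the log2 difference was -5.09. The PH levels of Plg, F5 and Serpinc1 were at the background given below, so their folds in PH are set by that floor, and their order was not measured. CS differed from L by -0.16 ± 0.19 (adjusted p = 0.624).

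Both anticoagulant genes fell in culture. Serpinc1, encoding antithrombin, which inactivates thrombin and factor Xa, had 534, 637 and 858 CPM at the lowest, median and highest in L, and 345, 396 and 650 CPM in CS. In PH it was at 46.5 to 62.6 CPM, far below both. It fell by 0.51 ± 0.13 in CS against L (adjusted p = 0.00392, lower in 8 of 8 mice), and by 4.10 ± 0.15 in PH against L, or 17.1-fold (adjusted p = 3.78e-20). The CS difference of Serpinc1 was not called in spliced UMIs alone (-0.27, adjusted p = 0.265) or in unspliced UMIs alone (-0.25, adjusted p = 0.182). Proc, whose product inactivates factors Va and VIIIa, had 230 to 321 CPM in L and 232 to 329 CPM in CS, nearly the same ranges. It had 55.2, 63.1 and 91.8 CPM at the lowest, median and highest in PH and fell by 2.60 ± 0.13 against L (adjusted p = 1.24e-16).

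**Figure D2:**
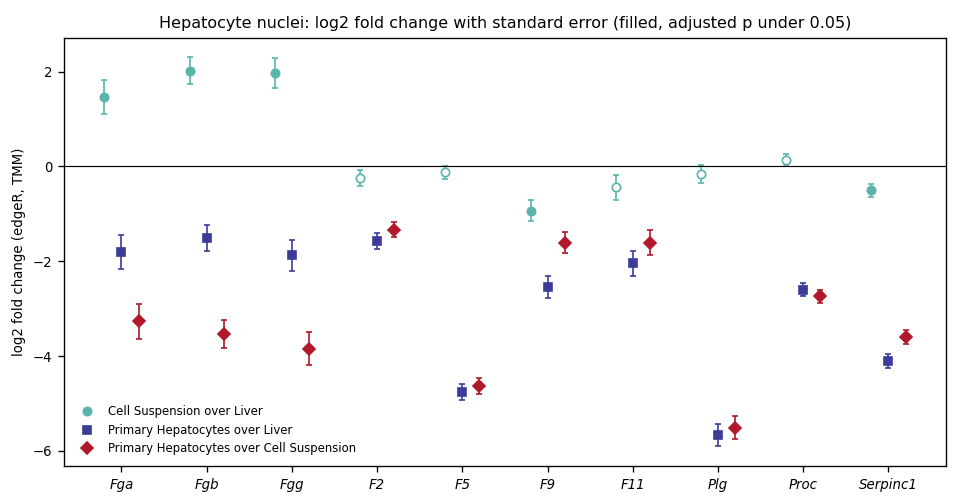
Log2 differences of the 10 members in hepatocyte nuclei from edgeR with their standard errors, filled where the adjusted p was under 0.05, for PH over L, PH over CS and CS over L. Values lie below 0 for each member in both comparisons with PH, from -5.67 to -1.33, and above 0 for the fibrinogen genes in CS over L, from 1.46 to 2.02.

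In PH against L, 10 of 10 members fell, where 26.3% of all genes tested were called lower and 27.4% higher. For 6 members, F2, F5, F9, Plg, Proc and Serpinc1, the PH and L samples did not overlap, where 9% of all genes were lower without overlap. The median log2 difference of the members was -2.29, against 0.10 over all genes. With library size alone these medians were -1.73 and 0.66, the members ran from -5.09 to -0.91 with F2 at -0.99, and the 10 calls stayed. In PH against CS, 10 of 10 members fell, where 23.5% of all genes were called lower, and 7 did not overlap, against 6.41% of all genes. The 3 that overlapped were F2, F9 and F11, with log2 differences of -1.33, -1.61 and -1.60. In CS against L, 3 members rose and 2 fell, where 8.15% of all genes were called higher and 14.2% lower. Fgb was the member without overlap between CS and L, a property of 0.874% of all genes in the direction of a rise. The 3 fibrinogen genes had a higher CPM in CS than in L in 8 of 8 mice, as 3.59% of all genes did, and 6 of the other 7 a lower CPM in 8 of 8 mice, as 19.1% of all genes did.

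Samples of different groups that shared a pool were also compared within it. In the 2 pools that held both L and PH samples, each member was lower in PH, with Plg at -5.63 and -5.29 and Fgb at -2.40 and -1.45 on the log2 scale. In the 4 pools with both CS and PH samples, each member was again lower in PH. In the 4 pools with L and CS samples, the CS over L difference was 0.86 to 2.51 for Fgb, 1.00 to 2.45 for Fgg and 0.03 to 2.02 for Fga. F9 and Serpinc1 were lower in CS in 4 of 4 pools. These 4 pools mostly set different mice against each other, and 2 mice had both samples in 1 pool. Of the members that did not pass in CS over L, F2 was on the side of its overall difference in 2 of 4 pools. F5, F11, Plg and Proc were so in 3 of 4 pools. Within the same mouse, F2, F5, F11 and Plg had a lower unscaled CPM in CS in 8 of 8 mice. On the TMM scale used for the pools, F2 and F11 were lower in 8 of 8 mice, F5 in 7 and Plg in 6. F11, whose level differed between mice in both L and CS, ran from -1.45 to 0.97 over the pools.

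Endothelial nuclei, which are not a known source of most of these proteins, also carried UMIs of the members. In L, the mean endothelial level was between 13.8% and 29.4% of the hepatocyte level over the 10 members, with a median of 17.0%, and in CS between 15.6% and 33.3%, with a median of 20.3%. In both groups the hepatocyte level of each member was the higher in 8 of 8 samples. In PH the endothelial level was 32.8% to 177% of the hepatocyte level, with a median of 78.4%. It was 67.6% for F2, 67.4% for F9 and 51.0% for Proc. Their folds in PH may thus also be limited by the background, whose part was not tested. F11 was the member whose hepatocyte level exceeded the endothelial level in all 8 PH samples.

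For F5, Plg and Serpinc1 the mean PH level in hepatocyte nuclei was below that in endothelial nuclei. Plg had 20.3 ± 4.55 CPM in PH hepatocyte nuclei (SD, n = 8) and 35.9 ± 24.0 CPM in PH endothelial nuclei. F5 had 26.6 ± 4.62 and 40.6 ± 27.1 CPM, and Serpinc1 57.4 ± 5.45 and 70.0 ± 27.8 CPM. The remaining level of these 3 genes in cultured hepatocyte nuclei was therefore at or below the background measured in the same samples, and is not read as expression. Barcodes with 10 to 100 UMIs outside the annotation, which mostly hold free RNA, had 238 to 645 CPM of Plg, 195 to 472 CPM of F5, 202 to 570 CPM of Serpinc1 and 592 to 1124 CPM of Fgb over the 6 pools. The part of free RNA from L and CS samples of the same pools in the PH values was not tested.

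Within endothelial nuclei, 3 of 10 members fell in PH against L, where 18.4% of all 18279 genes tested in these nuclei were called lower. These were Plg (-1.59 ± 0.33, adjusted p = 0.000181), F5 (-1.08 ± 0.32, adjusted p = 0.00668) and Serpinc1 (-0.91 ± 0.22, adjusted p = 0.00104). None of the 3 was called with the pool as a covariate. In CS against L, Fga, Fgb and Fgg rose in endothelial nuclei too, by 0.96 ± 0.26, 1.46 ± 0.27 and 1.20 ± 0.27 (adjusted p = 0.0200, 4.49e-04 and 0.00412), where 2.03% of genes were called higher. With the pool as a covariate 1 of the 3 calls held, and the call of Fga was lost without mouse 3, 4 or 8 (0.78, 0.86 and 0.84). In PH against CS, 4 members fell in endothelial nuclei, where 10.7% of genes were called lower, and F9 rose, where 9.33% were called higher. Plg fell by 1.59 ± 0.37 (adjusted p = 0.00101), Fgb by 1.14 ± 0.28 (adjusted p = 0.0019), F5 by 1.09 ± 0.35 (adjusted p = 0.0235) and Fgg by 0.98 ± 0.28 (adjusted p = 0.00921), and F9 rose by 1.51 ± 0.55 (adjusted p = 0.0427). The rise of F9 rests on 9 UMIs over the 8 CS samples, 0 to 3 in each, and 41 over the 8 PH samples. The calls of Plg and Fgb held without each mouse, whereas those of Fgg, F5 and F9 were lost without mouse 4 (-0.73, -0.93 and 1.45) or mouse 5 (-0.86, -0.91 and 1.51), that of F5 also without mouse 6 or 8 (-0.85 and -0.91) and that of F9 also without mouse 1, 2, 3 or 7 (1.57, 1.40, 1.36 and 1.35).

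The hepatocyte level was therefore set against the endothelial level of the same sample, as a log2 ratio with a pseudocount of 1 CPM. The ratio was lower in PH than in L for 10 of 10 members by a two-sided exact permutation test of 8 against 8 samples, where 9.62% of the 18212 genes tested in both kinds of nuclei had a lower ratio by the same test, adjusted over these genes. The Plg ratio was 2.85 ± 0.71 in L and -0.50 ± 0.87 in PH (SD, n = 8), a difference of -3.35 with an adjusted exact p of 0.00039, and the groups did not overlap. The differences for F5 and Serpinc1 were -3.13 and -2.66, and those of the other 7 lay between -1.71 and -1.20. F9 had the highest adjusted exact permutation p, 0.0148, and 0.0547 when samples were paired by mouse. In unspliced UMIs alone, Fga, Fgg and F2 did not pass, as given below. For CS against L the same test, added after the data were seen, called 0 of 10 members at an adjusted p, where 0.857% of genes were called higher and 0.461% lower, and 1, Fgg, at an unadjusted exact p of 0.035 (adjusted 0.331). The Fgg ratio was higher in CS by 0.95, that of Fgb by 0.66 and that of Fga by 0.58. In each of 8 CS samples the CPM of these 3 genes was higher in hepatocyte than in endothelial nuclei. Mean Fgb went from 658 CPM in L to 2442 CPM in CS in hepatocyte nuclei and from 194 to 547 CPM in endothelial nuclei. Mean Fgg went from 327 to 1176 CPM and from 91.0 to 223 CPM, and mean Fga from 306 to 777 CPM and from 81.4 to 168 CPM. The part of hepatocyte RNA in the endothelial rise was not tested, and a ratio to a level that holds such RNA can stay alike while both levels rise.

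The changes were spread over nuclei. With each nucleus thinned to 1000 UMIs, Fgb was seen in 40.3% of L hepatocyte nuclei (median of 8 samples), 85.9% of CS and 25.7% of PH. In endothelial nuclei these shares were 14.4%, 25.2% and 17.8%. The share in CS hepatocyte nuclei lay between 62.3% and 91.7% over samples, so Fgb RNA was found in most nuclei of each sample. Plg was seen in 45.4% of L, 41.6% of CS and 1.96% of PH hepatocyte nuclei, and in 5.61%, 6.08% and 2.86% of endothelial nuclei. F5 was seen in 2.84% of PH hepatocyte and 2.54% of PH endothelial nuclei, and Serpinc1 in 5.81% and 5.52%. The shares of these 3 genes in PH hepatocyte nuclei were thus near the background. The unthinned shares were 84.0%, 92.2% and 66.0% for Fgb and 86.7%, 69.7% and 10.0% for Plg, with median depths of 6861, 3025 and 5916 UMIs per hepatocyte nucleus. Thinning left out the 3.87%, 6.99% and 1.80% of hepatocyte nuclei and the 6.55%, 31.3% and 26.6% of endothelial nuclei with fewer UMIs.

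**Figure D3:**
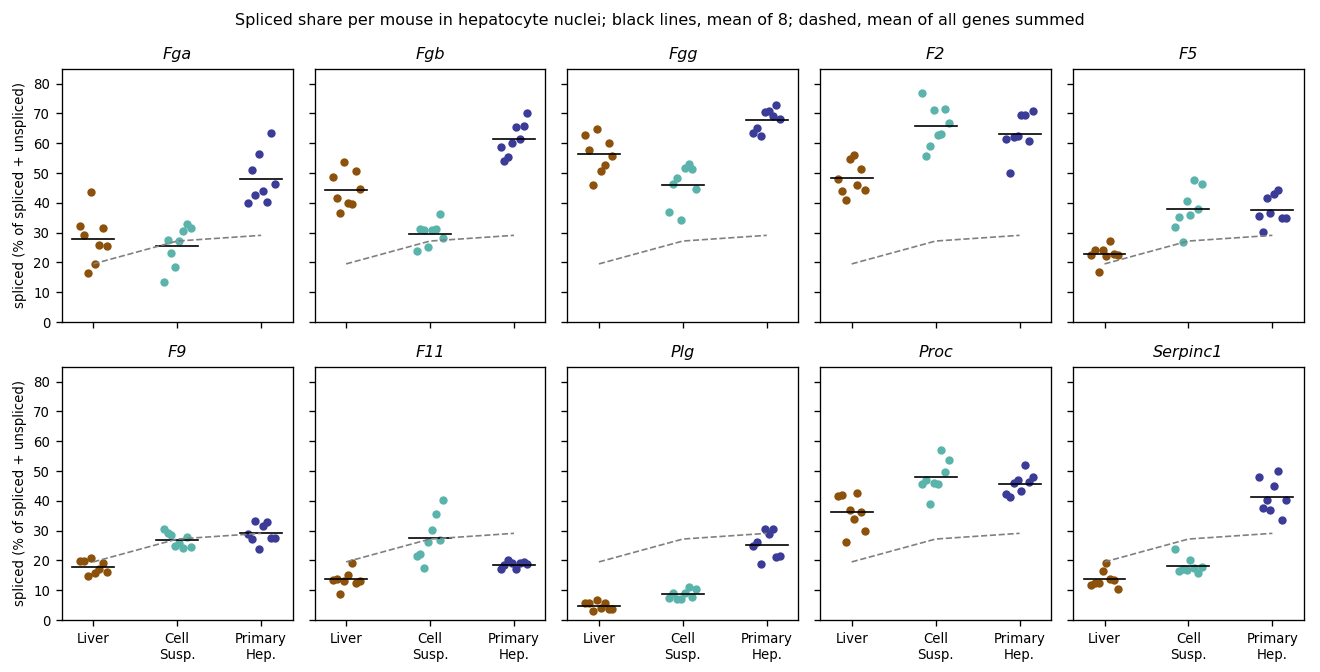
Percent of spliced among spliced and unspliced UMIs of each member in hepatocyte nuclei, each point a sample of L, CS or PH, black lines the means of 8 and the dashed line the mean share of all genes summed. The spliced share of Fgb was lower in CS (29.7%) than in L (44.4%) and PH (61.4%), whereas most other members had a higher share in CS than in L.

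Each UMI was assigned by its sequence as spliced, unspliced or ambiguous, and unspliced RNA is the newly made form that still holds introns. The spliced share of all genes summed was 19.5% ± 1.7 in L, 27.2% ± 3.0 in CS and 29.1% ± 1.6 in PH (SD, n = 8), so the share of all genes was also higher in CS and PH than in L. The spliced share of Fgb was 36.5% to 53.7% in L, 23.9% to 36.1% in CS and 54.1% to 70.1% in PH, with no overlap between any 2 groups. It fell by 14.7 percentage points in CS against L and was higher by 17.0 points in PH against L, with an adjusted exact permutation p of 0.00036 for each. Fgg had 56.3% ± 6.3 in L, 45.9% ± 6.9 in CS and 67.8% ± 3.8 in PH. Its difference of -10.4 points in CS against L had an adjusted exact permutation p of 0.0088, and of 0.075 when samples were paired by mouse. Fga had 28.0% ± 8.4 in L, 25.6% ± 6.8 in CS and 48.0% ± 8.3 in PH.

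Fgb and Fgg went against most other members in CS. In CS over L, 7 members had a higher spliced share, 2, Fgb and Fgg, a lower one and 1, Fga, did not pass the test (adjusted exact permutation p = 0.561). Of the 7584 genes with at least 20 spliced and unspliced UMIs in every L and CS sample, 66.2% had a higher and 2% a lower share by the same test, adjusted over these genes, with a median difference of 5.43 points. The 7 members thus went with most genes, Plg (3.80 points) and Serpinc1 (4.40 points) by less than the median gene. With ambiguous UMIs counted as spliced, Serpinc1 turned from a share higher by 4.40 points in CS to one lower by 4.87 points, both past the test. Counted by state, the rise in CS over L was 2.47 in unspliced and 1.09 in spliced UMIs for Fgb, 2.34 and 1.39 for Fgg, and 1.67 and 1.09 for Fga on the log2 scale. The difference between the states was not tested for these folds beyond the share itself. In endothelial nuclei, with UMIs pooled over 8 samples, the spliced share of Fgb was 67.5% (95% Wilson interval 65.2% to 69.8%) in L and 47.2% (44.1% to 50.3%) in CS, and that of Fgg 68.3% (64.7% to 71.7%) and 50.9% (45.9% to 55.9%). These shares were thus also lower in CS, and the change was not tested between samples.

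Plg and Serpinc1 were mostly unspliced in the liver. Plg was spliced in 4.84% ± 1.3 of UMIs in L, 8.64% ± 1.6 in CS and 25.3% ± 4.5 in PH. Serpinc1 had 13.8% ± 2.7, 18.2% ± 2.7 and 41.5% ± 5.7. The PH level of both genes, and of F5, was at or below that of endothelial nuclei, so their PH shares are given as values and are not read as those of hepatocyte RNA. In PH endothelial nuclei the pooled spliced share of Plg was 23.5% (95% Wilson interval 16.4% to 32.6%) and that of Serpinc1 49.2% (42.2% to 56.3%). In barcodes with 10 to 100 UMIs outside the annotation, pooled over the 6 pools, these shares were lower, at 7.74% (5.95% to 10.0%) and 17.7% (14.4% to 21.6%). The source of the spliced UMIs of both genes in PH was not tested. In PH over L, 10 of 10 members had a higher spliced share, as did 61.6% of 10839 genes, and 5 of them did not overlap, as 28% of genes did. These 5 were Fgb and F9 besides F5, Plg and Serpinc1, whose PH level was at the background. For F9 the PH endothelial level was 67.4% of the hepatocyte level, and the part of background UMIs in its PH share was not tested. In PH over CS, 5 had a higher share, where 14.7% of 7491 genes did. They were the 3 fibrinogen genes, by 22.4 points for Fga, 31.7 for Fgb and 21.9 for Fgg, and Plg and Serpinc1. In PH endothelial nuclei the pooled spliced share was 45.1% (39.5% to 50.9%) for Fga, 72.7% (69.6% to 75.5%) for Fgb and 64.9% (59.5% to 69.9%) for Fgg, near to or above the PH hepatocyte shares of 48.0%, 61.4% and 67.8%. The PH endothelial level of these 3 genes was 88.6%, 73.6% and 83.3% of the hepatocyte level, and the part of background UMIs in their PH shares was not tested. F11 had a lower share (-8.92 points, adjusted exact permutation p = 0.0022), where 14.6% of genes did, and 4 did not pass.

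The 3 fibrinogen chains did not keep a fixed ratio of UMIs. The ratio of Fga to Fgb was 0.437 ± 0.103 in L, 0.309 ± 0.058 in CS and 0.381 ± 0.028 in PH (SD, n = 8). That of Fga to Fgg was 0.917 ± 0.198, 0.656 ± 0.171 and 0.995 ± 0.087, and that of Fgb to Fgg 2.14 ± 0.37, 2.11 ± 0.26 and 2.63 ± 0.33. In CS against L, Fga was lower relative to Fgb by 0.49 and to Fgg by 0.50 on the log2 scale (adjusted exact permutation p = 0.0201 for both), and the ratio of Fgb to Fgg differed by -0.01 (adjusted exact permutation p = 0.934). Of 9 comparisons of these ratios 6 passed the test. None passed when samples were paired by mouse (adjusted exact p from 0.0703). In spliced UMIs alone, CS against L differed by 0.04 for Fga to Fgb, -0.27 for Fga to Fgg and -0.30 for Fgb to Fgg. None passed the test (adjusted exact permutation p = 0.862, 0.184 and 0.0699). In unspliced UMIs alone these were -0.71, -0.70 and 0.006, the first 2 past the test (adjusted exact permutation p = 0.0070, 0.0033 and 0.942). In PH against L, Fga to Fgg differed by 0.14 in all UMIs and 0.65 in spliced UMIs alone (adjusted exact permutation p = 0.270 and 0.0014). UMI ratios between genes depend on gene length and intron content, so they are compared between groups and not read as chain amounts.

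Hepatocytes differ along the liver lobule from the portal to the central vein, and the members were compared between these ends in L and CS. For this, added after the data were seen, part of the hepatocyte nuclei of each sample, 458 to 2470, were ranked by 10 central and 10 portal genes. The ranked nuclei were cut into 3 parts of about equal size, of which the outer 2 were compared. Depth differed between these ends, and not alike in L and CS. In each L sample the central end had the higher median of UMIs per nucleus. The medians at the portal and central ends were 11789 and 15911 UMIs in L mouse 5 and 8199 and 8200 in L mouse 2. In CS the portal end had the higher median except in mice 1 and 3. In CS mouse 4 the portal end had a median of 7814.5 UMIs and the central end 3918.5. In CS mouse 3 these were 6127 and 12834 UMIs. The part of depth in the differences between the ends was not tested. The cuts run through a continuous score, and 18.8% to 47.4% of the nuclei of a sample lay within 0.05 of a cut. Of the 20 ranking genes themselves, which therefore show the size of the split and are no check of it, Cyp2e1, a central gene, was higher at the central end by 6.06 on the log2 scale in L, and Hal, a portal gene, lower by 5.24.

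F5 was higher at the central end. In L it had 574 ± 81.2 CPM (SD, n = 8) at the central and 411 ± 73.5 CPM at the portal end, a log2 difference of 0.49 ± 0.16 that was seen in 8 of 8 mice (two-sided exact sign-flip permutation test, adjusted p = 0.0195 over 20 tests). In CS the difference was 0.52 ± 0.16, again in 8 of 8 mice. F9 had the opposite bias, by -0.32 ± 0.18 in L and -0.63 ± 0.28 in CS, each in 8 of 8 mice (adjusted exact p = 0.0195). Proc was higher at the central end in 8 of 8 mice in L, by 0.09 ± 0.05 (adjusted exact p = 0.0195), and in CS by 0.13 ± 0.18 in 5 of 8 samples, which did not pass (adjusted exact p = 0.117). Serpinc1 was higher at the portal end, by -0.28 ± 0.19 in L and -0.30 ± 0.12 in CS. Fgb and Fgg were higher at the portal end in L, by -0.23 ± 0.21 and -0.24 ± 0.18, in 8 of 8 mice. In CS their differences were 0.16 ± 0.22 and 0.19 ± 0.22 and did not pass the test (adjusted exact p = 0.112 and 0.0911), and the change between L and CS was not tested.

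**Figure D4:**
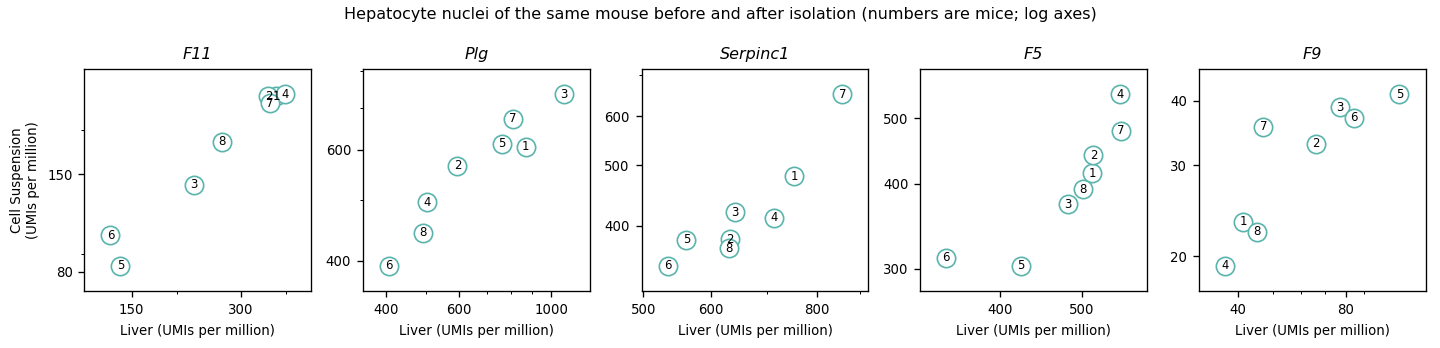
Level of F11, Plg, Serpinc1, F5 and F9 in hepatocyte nuclei of the L sample (horizontal) and the CS sample (vertical) of each of 8 mice, numbered, in CPM on log axes. For F11 the mice ranked nearly alike over a range of 131 to 397 CPM in L and 83.2 to 251 CPM in CS.

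L and CS samples of the same mouse resembled each other over many genes. Of 8741 genes with a mean of 10 CPM or more, 23.9% had a positive correlation between L and CS past the test over the 8 mice, adjusted over these genes, and the median r was 0.60, with the middle 50% of genes between 0.28 and 0.82. Of the 10 members, 5 passed. F11 was at 139 CPM and 131 CPM in the livers of mice 5 and 6, and at 222 to 397 CPM in the other 6. In CS the same 2 mice had 83.2 and 101 CPM and the others 140.5 to 251 CPM. Over the 8 mice the levels correlated with Pearson's r of 0.984 and Spearman's rho of 0.905 (exact permutation over pairings, adjusted p = 0.0082 and 0.0274 over 30 relations). Without mice 5 and 6, r was 0.984. In PH the values of these 2 mice, 82.9 and 67.3 CPM, were within the range of the others.

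The same was found for Plg, with r of 0.959 and rho of 0.929 (adjusted exact p = 0.0067 and 0.0167), and for Serpinc1, with r of 0.910 and rho of 0.952 (adjusted exact p = 0.0082 and 0.0167). It was also found for F5 (r = 0.877, rho = 0.952, adjusted exact p = 0.0100 and 0.0167) and F9 (r = 0.861, rho = 0.929, adjusted exact p = 0.0443 and 0.0167). Without the 2 mice farthest from the median, r was 0.910, 0.796, 0.942 and 0.786 for Plg, Serpinc1, F5 and F9. The other 5 members did not pass after adjustment, with r of 0.323 for Fga, 0.393 for Fgb, 0.766 for Fgg, 0.816 for F2 and 0.162 for Proc (adjusted exact permutation p = 0.738, 0.731, 0.115, 0.100 and 0.879). Without mice 3 and 5 the r of Fgb was -0.04. No member passed in the 20 relations of L or CS with PH, where r ran from -0.57 to 0.50. These relations were added after the data were seen, pools hold too few mice for values within a pool, and the L and CS samples of 2 mice shared a pool.

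Beyond the 10 members, 57 genes of clotting, its inhibition, fibrinolysis, factor processing and regulation were read from 6 lists. In PH against L, 9 of them rose, 34 fell and 14 did not pass the test, where 27.4% of all genes were called higher and 26.3% lower. In CS against L, 9 rose, 6 fell and 42 did not pass, where 8.15% of all genes were called higher and 14.2% lower.

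Of 11 other plasma factor genes of hepatocytes, 10 fell in PH against L and 0 rose. Of all genes, 26.3% were called lower and 27.4% higher. The median log2 difference of the 11 genes was -3.20, against 0.10 over all genes. Hrg, whose product histidine-rich glycoprotein binds plasminogen, went from 281 ± 91.9 CPM in L to 10.7 ± 2.22 CPM in PH (SD, n = 8), a fall of 5.29 ± 0.24 on the log2 scale (adjusted p = 9.15e-18). F13b, the carrier subunit of the fibrin-crosslinking factor XIII, fell by 4.79 ± 0.21 (adjusted p = 2.54e-18), and Proz, encoding protein Z, fell by 4.14 ± 0.15 (adjusted p = 4.73e-20). Of 12 inhibitor genes, 8 fell, 1 rose and 3 did not pass, beside the same shares of all genes. Tfpi2, a Kunitz-type protease inhibitor gene, fell by 4.76 ± 0.23 (adjusted p = 4.20e-17). Serpind1, the gene of heparin cofactor II, fell by 2.81 ± 0.16 (adjusted p = 2.40e-15).

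Of 6 genes of fibrinolysis activators and receptors, 4 rose in PH and 0 fell, where 27.4% of all genes were called higher. Anxa2 and S100a10, whose products form a plasminogen receptor, rose by 6.72 ± 0.32 (adjusted p = 3.06e-17) and 2.67 ± 0.19 (adjusted p = 2.92e-13), and Plaur, the urokinase receptor gene, by 4.62 ± 0.28 (adjusted p = 5.88e-15). With library size alone these 3 values were 7.30, 3.24 and 5.21. In PH endothelial nuclei the mean levels were 91.0 CPM for Anxa2, 43.3 CPM for S100a10 and 59.1 CPM for Plaur. In PH hepatocyte nuclei they were 193, 91.4 and 35.8 CPM, so Plaur was lower there than in endothelial nuclei. Whether endothelial nuclei make these 3 genes themselves was not tested, nor was the part of background RNA in the hepatocyte levels. The summed stellate, leukocyte and platelet marker lists were also higher in PH than in L hepatocyte nuclei. The 7 stellate markers summed to 17.9 to 44.9 CPM in L and 51.7 to 621 CPM in PH, the 6 leukocyte markers to 12.7 to 29.4 and 50.5 to 66.6 CPM, and the 5 platelet and megakaryocyte markers, 3 of them detected in L and 4 in PH, to 3.89 to 6.90 and 23.2 to 34.4 CPM. From L to PH, the median marker of the stellate list went from 0.66 to 0.76 CPM. That of the leukocyte list went from 2.25 to 3.82 CPM and that of the platelet list from 0.045 to 0.088 CPM. The 6 Kupffer cell markers summed to 7.79 to 17.4 CPM in L and 7.59 to 16.8 CPM in PH. The 6 biliary markers summed to 126 to 188 CPM and 130 to 195 CPM, with a median marker of 0.71 and 2.73 CPM. The part of other cell types in these rises was not tested.

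Of 8 genes that process or export clotting factors, 6 fell and 0 rose, where 26.3% of all genes were called lower and 27.4% higher. Lman1, a receptor that carries factors V and VIII out of the endoplasmic reticulum, fell by 2.50 ± 0.13 (adjusted p = 1.02e-16). The vitamin K cycle genes Vkorc1 and Ggcx fell by 1.93 ± 0.15 and 1.77 ± 0.19 (adjusted p = 2.46e-12 and 2.03e-09), Ggcx in 7 of 8 mice. Of 9 vessel wall and receptor genes, 4 rose and 3 fell, beside 27.4% and 26.3% of all genes. F3, the tissue factor gene, rose by 2.13 ± 0.20 (adjusted p = 1.24e-10), from 8.99 to 59.0 CPM, and F2rl1, a protease receptor gene, by 4.30 ± 0.31 (adjusted p = 4.25e-13). PH endothelial nuclei had 20.2 CPM of F3 and 1.84 CPM of F2rl1, against 5.11 CPM of F2rl1 in PH hepatocyte nuclei.

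Among 11 known regulators of these genes, 7 fell in PH against L and 0 rose. Of all genes, 26.3% were called lower and 27.4% higher. Hnf4a, a nuclear receptor that maintains hepatocyte identity, fell from 436 ± 62.5 to 206 ± 51.9 CPM (-1.65 ± 0.15, adjusted p = 3.98e-11). Cebpa, the gene of C/EBPα, fell by 2.17 ± 0.18 (adjusted p = 6.31e-12). Onecut1, the gene of the liver factor HNF6, fell by 4.90 ± 0.97 (adjusted p = 6.95e-05), but its L samples ran from 32.9 to 1607 CPM. In CS against L, 3 regulators rose, 1 fell and 7 did not pass, where 8.15% of all genes were called higher and 14.2% lower. Cebpa was among those that rose, by 0.89 ± 0.17 (adjusted p = 0.000212).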

How the data were processed

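Nuclei of 24 samples (8 mice, Liver, Cell Suspension and Primary Hepatocytes of each) were sequenced in 6 pools with 10x 3′ chemistry. The deposited counts are whole UMIs per gene and barcode, split by the authors into spliced, unspliced and ambiguous; per the labels, reads passed bcl2fastq 2.19.0, Salmon and alevin on GRCm38. The authors assigned nuclei to samples by hashtag, removed doublets and clustered, and their table was used; a sample name CD2 was read as CS2. Bulk RNA, protein and hashtag counts were not used here.

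Hepatocyte nuclei were those the authors named so, plus cultured clusters in which no marker list of another cell type reached a mean log2(CPM + 1) of 6. Cultured clusters with endothelial or stellate markers were named by these, and 2 low-UMI clusters were kept. UMIs of all states were summed per sample (2104087 to 29023569 in hepatocyte nuclei). Genes with under 10 counts were dropped, and sums were fitted with edgeR 4.0.16 in R 4.3.3 (quasi-likelihood test, TMM, design by sample type, all 24 samples), with Benjamini-Hochberg adjustment over all genes and a threshold of 0.05. Shares and ratios were tested by two-sided exact permutation, or sign flips when paired, whose smallest p is 0.0078. Intervals cover counting error only, and p-values measure the spread between these mice. The scripts were tested on simulated data.

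The members and lists were chosen with earlier results of these data known. All 10 members are named, and in each further list at most 3 called genes with the largest rise and 3 with the largest fall in PH over L, at a mean of 5 CPM or more. 1 list gene that this rule names is not reported here. Samples that share a mouse number were taken from 1 liver. Over 8741 genes, deviations of the same mouse correlated between L and CS by 0.338 to 0.846, but between L and PH by -0.05 to 0.13 and between CS and PH by -0.17 to 0.12. Alternatives were DESeq2 1.42.0, other size factors, no count filter, the mouse as a block, the pool as a covariate, single splicing states, other pseudocounts and leaving out each mouse. Library size alone, removal of the low-UMI clusters, zones, mouse correlations, the CS against L ratios, endothelial PH over CS, the spliced shares, ratios and mouse correlations of all genes and acute-phase genes were added after the data were seen.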

Additional observations from a re-analysis of the deposited data

Results flagged for a closer look

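Of 60 groups of 8 samples examined for a single distant value, 2 had one, and chance gives about 1 in 20. F9 was at 23.1 CPM in hepatocyte nuclei of PH mouse 1, against 17.3 CPM in the next highest PH sample. Serpinc1 was at 650.2 CPM in hepatocyte nuclei of CS mouse 7, which had the fewest UMIs of all samples, against 480 CPM in the next highest CS sample. The liver of mouse 7 also had the highest Serpinc1 of the L samples, 858 CPM, against 753 CPM in the next highest.

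The change from L to PH differed between hepatocyte and endothelial nuclei for each member, tested on the log2 ratio of both levels in a sample. The difference was -3.35 for Plg, -3.13 for F5, -2.66 for Serpinc1, -1.71 for F9, -1.64 for Proc, -1.51 for F2, -1.47 for Fga, -1.35 for Fgg, -1.22 for F11 and -1.20 for Fgb. In unspliced UMIs alone, Fga, Fgg and F2 did not pass (adjusted exact permutation p = 0.0666, 0.112 and 0.158). The endothelial level itself may hold free hepatocyte RNA, and its part in these differences was not tested.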

How the results depend on the processing

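Leaving out each mouse in turn kept 10 to 10 members called in PH over L and in PH over CS, 5 to 5 in CS over L, 3 to 3 in endothelial PH over L, 2 to 4 in endothelial PH over CS and 2 to 3 in endothelial CS over L. With the mouse as a replicate block, 10, 10 and 5 members were called in the 3 hepatocyte comparisons, 4 in endothelial PH over L (with Proc, -0.65) and 24 rather than 25 of 30 spliced shares passed. Paired by mouse, 9 rather than 10 ratios of hepatocyte to endothelial level and 0 rather than 6 fibrinogen chain ratios passed. With the pool as a covariate, 0 members rather than 3 were called in endothelial PH over L, with Fgb at -0.11 and F11 at 0.043, 3 rather than 5 in endothelial PH over CS and 1 rather than 3 in endothelial CS over L. In hepatocyte CS over L, spliced UMIs alone turned F5 (0.22), F11 (0.18) and Plg (0.36), unspliced UMIs alone turned Proc (-0.016), none of which was called, and unspliced UMIs alone called F2 (-0.50, adjusted p = 0.0497). The ratio of hepatocyte to endothelial level in CS against L turned for F9 with a pseudocount of 5 CPM (-0.15) and for Plg (0.086) and Proc (0.45) in unspliced UMIs alone. With ambiguous UMIs counted as spliced, the share of Serpinc1 in CS against L was -4.87 points (adjusted exact permutation p = 0.0444) in place of a rise, and that of F5 in PH against CS was 0.065 points. The log2 ratio of Fgb to Fgg in CS against L was 0.0060 in unspliced UMIs alone, and that of Fga to Fgb was 0.059 in PH and 0.037 in CS against L in spliced UMIs alone. The cause was not tested for any of these. Library size alone moved the median log2 difference of all genes in PH over L from 0.10 to 0.66 and the share of higher among called genes from 51.0% to 75.7%, from 53.4% to 80.2% in PH over CS and from 36.5% to 19.9% in CS over L, and kept each member's call in hepatocyte nuclei. Of all single values under alternatives, 1354 kept direction and side of the threshold, 39 lost the call, 3 gained it and 14 turned. Without the 2 low-UMI clusters 10, 10 and 5 members were called in hepatocyte nuclei. The low depth of endothelial nuclei limits the background values.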

Other observations

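Other acute-phase genes of hepatocytes were read beside the fibrinogen genes, chosen after their values were seen. In CS over L, Saa1 and Saa2, the serum amyloid A genes, rose by 2.56 and 2.60 on the log2 scale, Lcn2 by 2.95, Hpx, the hemopexin gene, by 1.61, Hp, the haptoglobin gene, by 1.49 and Orm1 by 1.41 (edgeR, each with an adjusted p under the threshold). Socs3, the feedback inhibitor of interleukin-6 signalling, rose by 4.37, from 5.83 to 108 CPM, and went from 3.04 to 62.4 CPM in endothelial nuclei. The CS levels of Saa1, Saa2 and Lcn2 in hepatocyte nuclei, 29.98, 16.8 and 15.5 CPM, were at or below the 30.7, 27.3 and 34.7 CPM of CS endothelial nuclei, and so not above the background. Crp (-0.06, adjusted p = 0.870) and Fgl1 (-0.27) did not pass.

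In PH over L, 5 of these 9 genes rose, 1 fell and 3 did not pass, where 27.4% of all genes were called higher and 26.3% lower. Saa1 rose by 4.37 to 177 ± 64.4 CPM (SD, n = 8), Saa2 by 5.01, Lcn2 by 6.15, Orm1 by 1.15 and Hpx by 1.05 (edgeR, each with an adjusted p under the threshold). Crp fell by 2.80. Hp (0.38, adjusted p = 0.180), Fgl1 (0.85, adjusted p = 0.357) and Socs3 (-0.56, adjusted p = 0.228) did not pass, and Socs3 was at 6.05 CPM in PH, below the 14.8 CPM of PH endothelial nuclei. The L samples of Fgl1 ran from 8.21 to 429 CPM with a median of 15.6 CPM. Its PH samples ran from 211 to 339 CPM with a median of 236 CPM, so the mean of L rests on its highest samples. In PH over CS, Saa1, Saa2 and Lcn2 rose by 1.81, 2.41 and 3.20, Hp, Crp and Socs3 fell by 1.11, 2.74 and 4.93, and Orm1 (-0.25), Hpx (-0.56) and Fgl1 (1.12) did not pass. PH endothelial nuclei held 96.0 CPM of Saa1 and 164 CPM of Lcn2.

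The 2 livers with the highest fibrinogen levels, of mice 3 and 5, also had the highest Fgl1, a fibrinogen-like acute-phase gene, at 429 and 182 CPM. Of the other acute-phase genes above the endothelial level in L, the highest liver was that of mouse 3 for Hpx, mouse 5 for Orm1, mouse 2 for Hp and mouse 4 for Crp and Socs3. Saa1, Saa2 and Lcn2 were below the endothelial level in L, at 5.78, 3.05 and 2.10 against 6.90, 5.603 and 6.12 CPM.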
